A study of Mus musculus with 6 samples.

Results

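The SLC25 family of mitochondrial carriers was described in the left ventricle of obese male mice. Members were all genes whose symbol in the name table of the array reads Slc25a followed by a number and for which at least 1 probe set names that gene alone. This gave 44 genes out of 18194 genes named in the same way, measured by 93 probe sets. The value of a probe set is a linear fluorescence signal with no absolute unit, scaled to the rest of its array, and each gene is given here by its brightest probe set. The 6 mice were C57BL/6 males, 6 months old, and had eaten high fat food for 16 weeks, so that no lean mouse stands in the comparison. In 3 of them the agent was placebo and in 3 it was Lira, a name that the labels do not spell out and for which they give no dose or length of treatment. One array was made per mouse from left ventricle RNA, and the design text speaks of more mice than these 6, the rest of which are not analysed here.

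Mitochondrial carriers are small proteins of the inner mitochondrial membrane, each built from repeats of one unit that crosses the membrane in helices. They exchange the solutes that mitochondrial metabolism consumes and delivers, such as ADP against ATP, phosphate, citrate, malate, aspartate, acylcarnitines, cofactors and iron. The heart makes most of its ATP in mitochondria and from fatty acids, so that nucleotide, phosphate and acylcarnitine traffic across this membrane is heavy there. Some members have no settled substrate, and Slc25a46 lies in the outer membrane, where it takes part in the shaping of mitochondria.

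The labelled tissue was checked on marker genes because the extraction text of the labels speaks of blood. The 8 cardiomyocyte markers, among them Tnnt2 and Myh6, summed to 192908 to 239445 signal units per array. The highest sum was on Lira replicate 2 and the other 5 arrays reached at most 206782. The log2 difference, Lira minus placebo, was above 0 in 7 of these 8 markers and below 0 in 1, with a median of 0.11. Ryr2 alone among them was separated, at 6741 ± 231 with placebo and 7699 ± 160 with Lira. The 3 red cell markers with a probe set of their own (Hba-a1, Alas2 and Slc4a1) each had a mean under 50, and they summed to 43.6 to 110.6 on the placebo arrays and to 32.4 to 55.1 on the Lira arrays. Probe sets that name several globin genes at once were not used. The 3 lymphoid markers (Cd3e, Cd79a and Ptprc) summed to 98.0 to 164.9 with placebo and to 124.1 to 193.0 with Lira. Ptprc among them measured 99.9 ± 6.03 with placebo and 134 ± 24.4 with Lira, each Lira value above each placebo value. Adipoq, Lep and Cidec, which mark fat cells, summed to at most 47.3. Plin1 and Cfd, listed beside them, gave no value here. Of the brown fat cell markers, Ucp1 was dim, at a mean of 5.41. Cidea was not, at 1031 ± 56.4 with placebo and 914 ± 105 with Lira, with overlapping groups. The 4 macrophage markers summed to 1754 to 1874 with placebo and to 1889 to 2114 with Lira. The 5 fibroblast markers summed to 9517 to 10437 with placebo and 10435 to 12517 with Lira, ranges that overlap. Dcn makes up most of that sum, at 6790.3 ± 101 with placebo and 7976 ± 703 with Lira. The differences of Dcn (0.23), Pdgfra (0.26) and Lum (0.12) lay above 0, and those of Col1a1 (-0.02) and Col1a2 (-0.13) below 0. All 4 endothelial markers were above 0 (0.0004 to 0.21). The 3 tested skeletal muscle markers, dim with means under 50, were below 0 (-0.48 to -0.07). Of the 2 tested smooth muscle markers 1 was above 0 and 1 below. The 1 tested atrial marker, Myl4, was separated with Lira higher (0.27). The part of these marker values in the results below was not tested. In a piece of tissue, fewer cells of a type and less RNA per cell cannot be told apart.

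Members spanned the whole range of signal in the ventricle. Probe sets differ in how strongly they bind their transcript, so these are ranks of signal, a rough guide to abundance and no measure of transcript number. By mean signal over the 6 arrays, 2 members ranked in the upper 1% of the 18194 genes, 11 in the upper 10% and 33 in the upper 50%. Slc25a4 ranked 10 and Slc25a3 ranked 23 of 18194, and on single arrays their ranks ran from 7 to 12 and from 21 to 29. Next came Slc25a5 at rank 250, Slc25a11 at 288, Slc25a39 at 301, Slc25a20 at 473, Slc25a12 at 600 and Slc25a34 at 857. After them stood Slc25a46 at 1332, Slc25a51 at 1396 and Slc25a36 at 1605.  The ranges over arrays kept Slc25a4, Slc25a3 and Slc25a5 (234 to 260) apart from their neighbours. Those of Slc25a11 (271 to 336) and Slc25a39 (281 to 317) overlapped, as did those of Slc25a46 (1213 to 1469), Slc25a51 (1179 to 1594) and Slc25a36 (1457 to 1817), so these were not ordered beyond their spread. At the other end, 7 members stayed under 50 signal units on every array. No detection calls were used, and whether such values exceed background is not known.

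**Figure D1:**
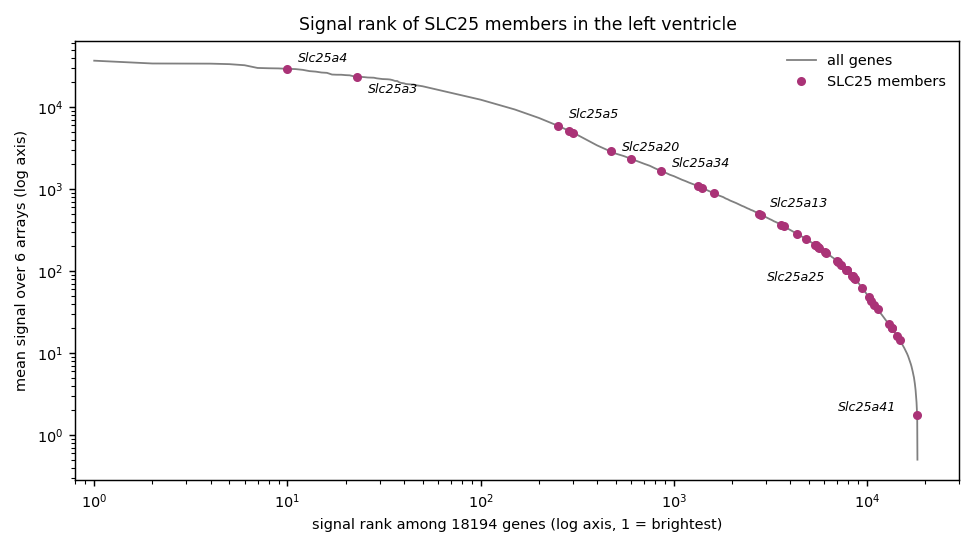
Mean signal over 6 arrays against signal rank for all 18194 genes (line) and the 44 SLC25 members (points), both axes logarithmic. Slc25a4 (rank 10) and Slc25a3 (rank 23) stand among the brightest genes, and Slc25a41 is near the dim end.

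Lira was compared with placebo in limma on log2(signal + 16), fitted over the 12736 genes that passed a filter on low signal, with p-values adjusted over all of them by Benjamini-Hochberg. The filter kept 39 of the 44 members. An adjusted p under 0.05 was reached by 0 of these 39, against 7 of 12736 genes or 0.055% in all. The lowest adjusted p of a member was 0.67. At an unadjusted p under 0.05 there were 4 members, 2 higher with Lira (Slc25a13 and Slc25a30) and 2 lower (Slc25a25 and Slc25a34), against a background of 6% of all genes tested, 2.87% higher and 3.13% lower. These 4 are 10.3% of the members, a count too small to read as a property of the family. The groups did not overlap in 5 members, 3 higher and 2 lower, where 11.5% of all genes tested did so, 5.99% higher and 5.46% lower with Lira. The difference was above 0 in 24 members and below 0 in 15, beside 52% and 48% of all genes tested. The median log2 difference over the 39 members was 0.03, and over all genes tested it was 0.01. The size of the difference, regardless of sign, had a median of 0.12 in the members and 0.13 in all genes tested, and it was under 0.2 in 30 of the 39. By array, placebo replicate 3 held the lowest value of 14 of the 39 members. The other 5 arrays held that of 3 to 7 each. Placebo replicate 3 also held the highest value of 8 members, as did Lira replicate 1. The members' median log2 deviation from their mean over the 6 arrays was lowest on Lira replicate 3 (-0.07), followed by placebo replicate 3 (-0.05). Without placebo replicate 3 the members' median difference was 0.01, and without Lira replicate 3 it was 0.07. Differences below are log2, Lira minus placebo, ± SE from limma, and intervals are 95%.

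**Figure D2:**
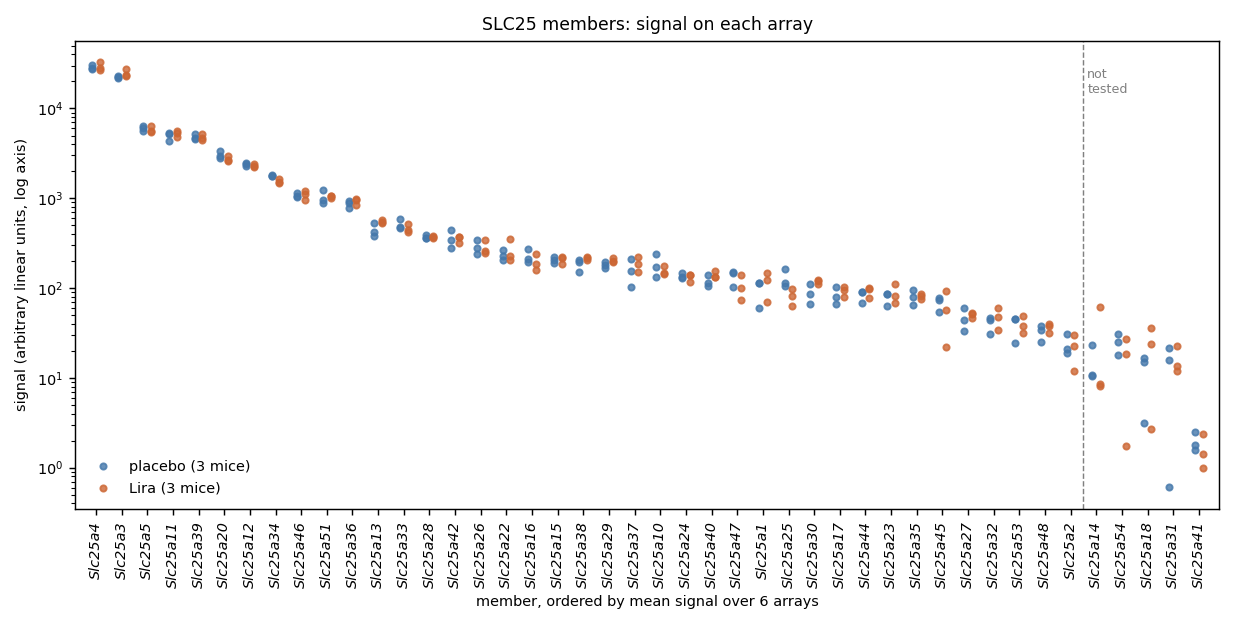
Signal of the 44 SLC25 members on each array (log axis), ordered by mean signal, with 3 placebo mice in blue and 3 Lira mice in orange. Points of both groups intermix for most members, and the 5 members right of the dashed line did not pass the filter on low signal.

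Carriers of ADP, ATP and phosphate supply the ATP synthase with its substrates and bring the product out. Slc25a4 (gene ID 11739), the ADP/ATP carrier of heart and skeletal muscle, measured 27637, 30470.5 and 28477 with placebo and 28405, 32947 and 26999 with Lira. The highest value was that of Lira replicate 2, which also had the highest cardiomyocyte marker sum, and the lowest that of Lira replicate 3, so the placebo range lay inside the Lira range. Its log2 difference was 0.03 ± 0.09 (SE), with an interval of -0.17 to 0.22 and an adjusted p of 0.99 in limma. Slc25a3 (gene ID 18674), which carries phosphate, measured 22346, 23299 and 21755 with placebo and 23394, 27277 and 22886 with Lira. All 3 Lira values exceeded 2 of the 3 placebo values, and Lira replicate 2 was again the highest. The difference was 0.12 ± 0.09 with an interval of -0.06 to 0.31 (adjusted p = 0.87), and without Lira replicate 2 it was 0.04. Slc25a5 (gene ID 11740), the ADP/ATP carrier found in most tissues, measured 5591, 6006 and 6459.6 with placebo and 5616, 5515 and 6371 with Lira, with a difference of -0.05 ± 0.09 and an interval of -0.24 to 0.15. Slc25a4 and Slc25a5 encode closely related proteins, and probe sets of one may take up transcripts of the other. Slc25a31, the ADP/ATP carrier of the testis, was among the members below the filter, at a mean of 12.7 with placebo and 16.0 with Lira.

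The calcium-regulated carriers of ATP-Mg and phosphate adjust the adenine nucleotide pool of the matrix. Slc25a25 (gene ID 227731), one of them, had the lowest p of all members tested. It measured 162, 114 and 105 with placebo and 80.6, 96.8 and 63.5 with Lira. Each Lira value lay below each placebo value, with placebo replicate 1 well above the rest and the nearest arrays at 105 and 96.8. Group means were 127 ± 30.5 with placebo and 80.3 ± 16.7 with Lira (SD, n = 3 each), and the log2 difference was -0.56 ± 0.20 with an interval of -0.99 to -0.14. Its p in limma was 0.014 before and 0.67 after adjustment over all genes. Without placebo replicate 1 the difference was -0.40 (adjusted p = 0.79), and without Lira replicate 3 it was -0.43 (adjusted p = 0.82). Of its relatives, Slc25a24 measured 136 ± 10.4 with placebo and 131 ± 13.2 with Lira, Slc25a23 77.8 ± 12.6 with placebo and 86.8 ± 21.6 with Lira, and Slc25a41 stayed below the filter with a mean of 1.77. Of the 6 tested members of the nucleotide and phosphate group, 3 were above 0 and 3 below, with a median of -0.01, and Slc25a25 alone had an unadjusted p under 0.05.

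Carriers of citrate, dicarboxylates and oxoglutarate link the tricarboxylic acid cycle with the cytosol. Slc25a11, which exchanges oxoglutarate for malate and is a limb of the malate-aspartate shuttle, measured 5331, 5236 and 4296 with placebo and 4765, 5287 and 5542 with Lira, with placebo replicate 3 the lowest of all 6. The log2 difference was 0.07 ± 0.10 and its interval -0.14 to 0.29 (adjusted p = 0.95 in limma). The dicarboxylate carrier Slc25a10 measured 239, 172 and 131 with placebo and 146, 177 and 144 with Lira. Its placebo values span more than the Lira values, and the difference was -0.17 ± 0.19. It was 0.04 without placebo replicate 1 and -0.36 without placebo replicate 3. Slc25a1, the citrate carrier that feeds fatty acid synthesis in the cytosol, was dimmer, at 113, 115 and 59.3 with placebo and 123, 147 and 70.2 with Lira. The third array of each group was the lowest of that group, the groups overlapped and the difference was 0.21 ± 0.26 with an interval of -0.35 to 0.77. Leaving out placebo replicate 3 turned the difference to -0.06, while leaving out Lira replicate 2 gave 0.02 and leaving out Lira replicate 3 gave 0.47. The 3 tested members of this group had a median of 0.07, with 0 at an unadjusted p under 0.05.

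Aspartate and glutamate leave and enter the matrix through a pair of calcium-stimulated carriers. The one named Aralar, Slc25a12, is the form of heart, muscle and brain, and measured 2468, 2384 and 2270.4 with placebo and 2265, 2203 and 2401 with Lira, within a narrow range on all 6 arrays. Its difference was -0.05 ± 0.08 with an interval of -0.23 to 0.13. Citrin, Slc25a13 (gene ID 50799), is the form of the liver, and measured 532, 416 and 381 with placebo and 528, 547 and 574 with Lira. All 3 Lira arrays lay above placebo replicates 2 and 3, but placebo replicate 1 reached the Lira values, so the groups overlapped. Means were 443 ± 78.9 with placebo and 549.6 ± 23.0 with Lira (SD, n = 3 each) and the log2 difference was 0.31 ± 0.13 with an interval of 0.04 to 0.59. The p in limma was 0.027 before and 0.76 after adjustment. Without placebo replicate 1 the difference was 0.45 (adjusted p = 0.51, limma), and without placebo replicate 3 it was 0.22 (adjusted p = 0.998, limma). Whether the differences of Slc25a12 and Slc25a13 differ from each other was not tested.

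Among the other amino acid carriers, Slc25a38, which carries glycine for haem synthesis, measured 194, 203 and 152 with placebo and 206, 218 and 221 with Lira. Each Lira value exceeded each placebo value, the nearest being 206 and 203, and the difference was 0.22 ± 0.14 (adjusted p = 0.87 in limma). Slc25a29, a carrier of basic amino acids, was also separated, at 167, 179 and 195 with placebo and 197, 200.3 and 217 with Lira, with a difference of 0.17 ± 0.13 (adjusted p = 0.89 in limma) and nearest values of 195 and 197. The glutamate carrier Slc25a22 measured 266, 226 and 207 with placebo and 351, 228 and 206 with Lira, where Lira replicate 1 stands above the others. Without that array its difference went from 0.13 to -0.09. Slc25a44, a carrier of branched-chain amino acids, measured 90.1, 89.9 and 67.7 with placebo and 99.1, 97.4 and 76.6 with Lira, with overlapping groups. The ornithine carrier Slc25a15 measured 206 ± 16.4 with placebo and 208 ± 19.3 with Lira, its relative Slc25a2 was dim at 23.5 ± 6.23 with placebo and 21.5 ± 8.88 with Lira, and Slc25a18, a second glutamate carrier, was below the filter. Of the 8 tested amino acid carriers 6 were above 0 and 2 below, with a median of 0.12, and Slc25a13 was the one at an unadjusted p under 0.05.

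**Figure D3:**
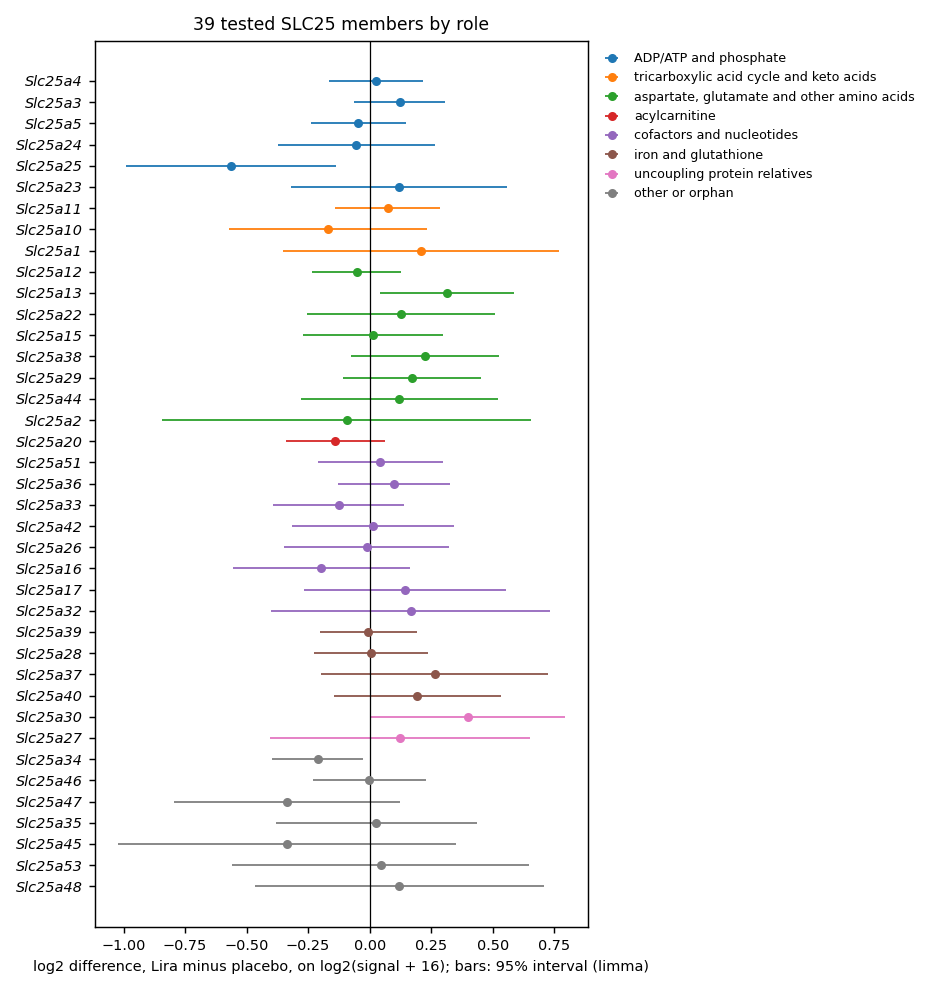
Log2 difference, Lira minus placebo, for the 39 tested SLC25 members grouped by role, with 95% intervals from limma (n = 3 per group). The intervals of Slc25a25 and Slc25a34 lie below 0 and those of Slc25a13 and Slc25a30 above it, and those of the other members include 0.

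Slc25a20 brings acylcarnitines into the matrix for beta-oxidation. It measured 2807, 2919 and 3330.2 with placebo and 2952, 2668 and 2591 with Lira. The placebo values were mostly above the Lira values, but Lira replicate 1 exceeded the lower pair of placebo arrays, and the difference was -0.14 ± 0.09 with an interval of -0.34 to 0.06 (adjusted p = 0.87 in limma). Its second probe set, of similar brightness, gave a difference of -0.003. Around this carrier, the carnitine palmitoyltransferase Cpt2 measured 3330.4 ± 181 with placebo and 3298 ± 204 with Lira and the carnitine acetyltransferase Crat 2079.9 ± 142 with placebo and 2057 ± 163 with Lira. Slc22a5, which takes carnitine into the cell, measured 335, 353 and 336 with placebo and 478, 444 and 361 with Lira, with each Lira value above each placebo value and a difference of 0.30 ± 0.12. Its p in limma was 0.029 before and 0.76 after adjustment. Cpt1a, one form of the enzyme that starts the import of long-chain fatty acids, was barely separated the other way. It measured 252, 261 and 218 with placebo and 198, 218 and 205 with Lira (nearest values 218.5 and 218.4). Its difference was -0.22 ± 0.13 (adjusted p = 0.86 in limma). This list holds 5 genes, of which 4 were named and tested. Of these 4, 1 was above 0 and 3 below. Cpt1b, another form of that enzyme, was not among them, so its level is not known here.

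Carriers of cofactors and nucleotides bring coenzyme A, NAD, S-adenosylmethionine, folate and pyrimidine nucleotides into the organelle. Slc25a51, which carries NAD, measured 1234, 951 and 889 with placebo and 1061, 1019.7 and 1056 with Lira. The placebo values enclosed the Lira values. Slc25a36, which carries pyrimidine nucleotides, measured 882, 774 and 924 with placebo and 979, 955 and 831 with Lira, with overlapping groups, and its relative Slc25a33 measured 480.3, 464 and 584 with placebo and 449, 424 and 523 with Lira, also overlapping. Slc25a42, a carrier of coenzyme A, measured 445, 341 and 277 with placebo and 370.2, 369 and 317 with Lira, and here the 3 placebo mice alone spanned the whole range. Slc25a16, tied to coenzyme A as well, measured 209, 194 and 270.5 with placebo and 239.7, 159 and 185 with Lira with a difference of -0.20 ± 0.17. The S-adenosylmethionine carrier Slc25a26 measured 276, 341 and 241 with placebo and 345, 258 and 248 with Lira, with a difference of -0.01 ± 0.16. The peroxisomal carrier Slc25a17 measured 83.4 ± 18.2 with placebo and 92.9 ± 11.3 with Lira, and the folate carrier Slc25a32 was dim at 40.1 ± 8.37 with placebo and 47.4 ± 13.4 with Lira. Over the 8 tested members the median was 0.03, 5 were above 0 and 3 below, and 0 had an unadjusted p under 0.05.

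Mitoferrins carry iron for the making of haem and iron-sulphur clusters. Slc25a28, mitoferrin of most tissues, measured 360.1, 358 and 388 with placebo and 381, 359 and 369 with Lira. These 6 values lie close together, and the difference was 0.00 ± 0.11 with an interval of -0.23 to 0.24. Slc25a37, mitoferrin of red cell precursors, measured 154, 102 and 213 with placebo and 219.7, 151 and 187 with Lira. Both groups spread widely and overlapped, and the difference was 0.26 ± 0.21 (adjusted p = 0.89 in limma), with 0.02 without placebo replicate 2 and 0.49 without placebo replicate 3. The red cell marker sums ran from 43.6 to 110.6 with placebo and from 32.4 to 55.1 with Lira, and their part in the values of Slc25a37 was not tested. Slc25a39, which carries glutathione, measured 4655, 4592 and 5254 with placebo and 4739, 4468 and 5251 with Lira, and its relative Slc25a40 measured 121 ± 18.4 with placebo and 139.7 ± 13.4 with Lira, both with overlapping groups. Of the 4 members, 3 were above 0 and 1 below, with a median of 0.10 and 0 at an unadjusted p under 0.05 in limma.

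Of the relatives of the uncoupling proteins, the 2 that were tested were above 0. Slc25a30 (gene ID 67554) is also called kidney mitochondrial carrier protein and measured 110.2, 66.2 and 85.3 with placebo and 120.5, 122 and 112 with Lira. All 3 Lira values lay close together and above the 3 placebo values, with 112 in Lira replicate 3 barely above 110.2 in placebo replicate 1. The difference was 0.40 ± 0.18 with an interval that starts at 0.002, and p in limma was 0.049 before and 0.82 after adjustment. It was 0.25 without placebo replicate 2 (adjusted p = 0.96, limma). Slc25a27 measured 45.9 ± 13.6 with placebo and 50.4 ± 3.60 with Lira. Slc25a14 did not pass the filter, with 61.4 on Lira replicate 2 and at most 23.3 on the other 5 arrays.

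Of the members placed in none of the groups above, Slc25a34 (gene ID 384071) was the brightest. It measured 1805, 1776 and 1777 with placebo and 1515, 1640.5 and 1469 with Lira. The 3 placebo arrays lay close together, and each Lira array lay below them. Means were 1786 ± 16.3 with placebo and 1542 ± 88.8 with Lira (SD, n = 3 each), a log2 difference of -0.21 ± 0.09 with an interval of -0.40 to -0.03, and p in limma was 0.028 before and 0.76 after adjustment. It kept its sign with each array left out in turn, from -0.26 to -0.18. Its close relative Slc25a35 measured 79.8 ± 15.8 with placebo and 80.8 ± 5.80 with Lira. Slc25a46 measured 1151, 1067 and 1041 with placebo and 1102, 949 and 1218 with Lira, with the Lira values spread around the placebo values. Slc25a47, known from liver, measured 134 ± 27.1 with placebo and 105 ± 33.6 with Lira, and Slc25a45 69.0 ± 12.8 with placebo and 56.8 ± 34.8 with Lira, where Lira replicate 3 at 22.1 was the lowest. Slc25a48 and Slc25a53 had means under 50 in both groups, and Slc25a54 was below the filter. Of the 7 tested members of this group, 3 were above 0 and 4 below, with a median of -0.002.

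Among the 23 members with several probe sets, all probe sets had the sign of the one used in 6 members, which are Slc25a3, Slc25a10, Slc25a20, Slc25a25, Slc25a29 and Slc25a53. The 3 probe sets of Slc25a25 gave -0.56, -0.67 and -0.34, the last pair at mean signals of 28.5 and 16.9 with overlapping groups. Of the 5 probe sets of Slc25a30, 4 were above 0, and the brightest pair gave 0.40 and 0.26. The one below 0 gave -0.35 at a mean of 11.0, and averaging all 5 gave a difference of 0.13 (adjusted p = 0.99 in limma). The 5 probe sets of Slc25a29 gave 0.06 to 0.45, and the groups were apart only in the one used (0.17). The 0.45 came from the dimmest, at a mean of 45.7. Those at means of 177, 151 and 119 gave 0.06, 0.07 and 0.08 with overlapping groups. Slc25a34, Slc25a13 and Slc25a38 rest on 1 probe set each.

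Slc25a39 and Slc25a5 differed by probe set. For Slc25a39 the brightest gave -0.005, but a probe set at a mean of 779.8 read 801, 665 and 568 with placebo and 832, 947 and 866 with Lira, each Lira value above each placebo value, with a difference of 0.38. The other 3 gave -0.15, -0.30 and -0.71, the last one at a mean of 22.6. Of the 8 probe sets of Slc25a5, 7 were below 0. The 4 with a mean above 4000 lay between -0.17 and 0.02, and the dimmest pair, at means of 612.6 and 377.8, gave -0.64 and -0.47 without overlap of the groups. For Slc25a4 the pair of probe sets at means of 29156 and 27981 gave 0.03 and 0.04, while those at 3359 and 244.8 gave -0.11 and -0.27. These are values of single probe sets picked for display after they had been seen, with no test of their own.

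**Figure D4:**
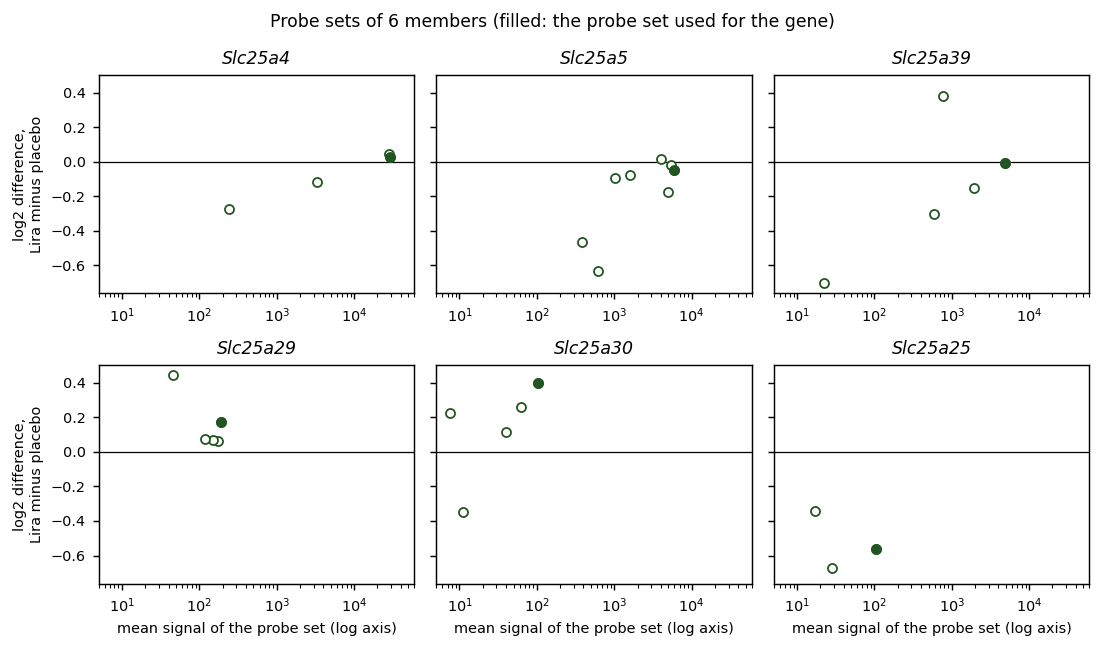
Log2 difference, Lira minus placebo, of every probe set of 6 members against its mean signal over 6 arrays (log axis), with the probe set used for the gene filled. The probe sets of Slc25a25 all lie below 0 (-0.67 to -0.34) and those of Slc25a29 above it (0.06 to 0.45), while those of Slc25a39 range from -0.71 to 0.38.

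Genes that work beside the carriers were taken from 9 lists of 56 genes, of which 46 were named and 45 tested. An adjusted p under 0.05 was reached by 0 of them. At an unadjusted p under 0.05 there was 1 higher (Slc22a5) and there were 3 lower (Mtch2, Timm10 and Timm9), next to the 2.87% and 3.13% of all genes given above. The median difference of the 45 was -0.002.

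Carriers are made in the cytosol and reach the inner membrane through the receptors Tomm20 and Tomm70a, small chaperones of the intermembrane space that include Timm9 and Timm10, and the insertion complex of Timm22. Of the 7 import genes tested, 5 were below 0 and 2 above, with a median of -0.20, beside 0.01 in all genes tested. Timm10 measured 2157, 2348 and 2457 with placebo and 1926, 1949.5 and 2095 with Lira, with each Lira value below each placebo value and a difference of -0.22 ± 0.09. Its p in limma was 0.027 before and 0.76 after adjustment. Timm9 was dimmer, at 118, 142 and 180.4 with placebo and 119, 94.5 and 106 with Lira, and its groups overlapped, with a difference of -0.40 ± 0.17 (adjusted p = 0.80 in limma). Tomm20 measured 6339, 6415 and 7634 with placebo and 5445, 6192 and 6120.4 with Lira, each Lira value below each placebo value, and its difference was -0.20 ± 0.09 (adjusted p = 0.83 in limma). The inserting channel Timm22 measured 488 ± 12.7 with placebo and 497 ± 33.2 with Lira. Tomm40 was above 0, at 501 ± 62.6 with placebo and 552 ± 21.3 with Lira (0.14 ± 0.11). Tomm70a was at -0.26 ± 0.13 and Timm29 at -0.04 ± 0.12, both with overlapping groups. This list was chosen with earlier results of these data known, and no test was run on it as a set. The summed signal of the 7 genes ran from 11077 to 12438 with placebo and from 9586 to 10637 with Lira, a sum in which Tomm20 weighs most. Without placebo replicate 3 the differences of Timm10, Timm9 and Tomm20 were -0.18, -0.25 and -0.11.

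**Figure D5:**
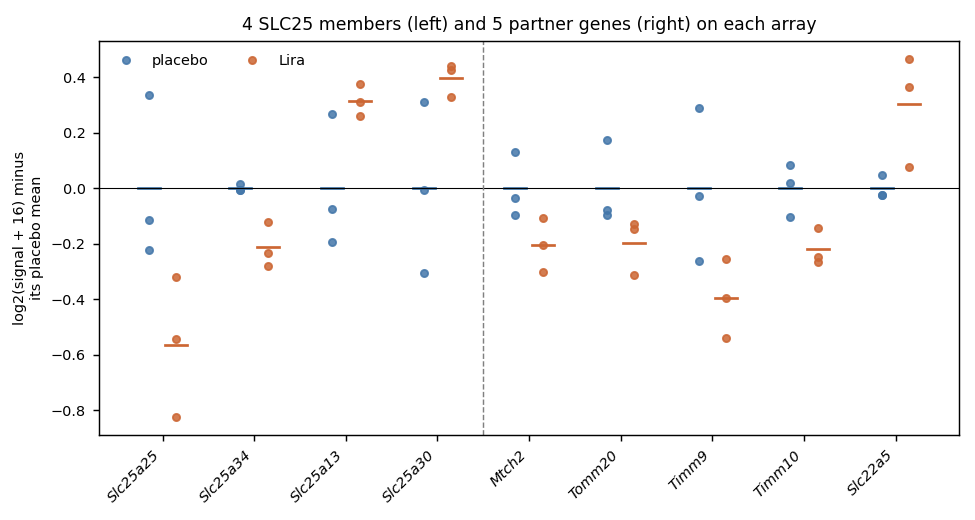
Log2(signal + 16) on each array minus the placebo mean of the gene, for the 4 SLC25 members at an unadjusted p under 0.05 and 5 partner genes, with 3 placebo mice in blue, 3 Lira mice in orange and bars at the group means. Slc25a25 and Slc25a34 lie lower on each Lira array than on any placebo array, whereas placebo replicate 1 of Slc25a13 reaches the Lira values. Tomm20 is shown as the brightest import gene, and its unadjusted p was above 0.05.

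Proteins of the same family that carry other symbols were Ucp3, Mtch1 and Mtch2, with Ucp1 below the filter. Mtch2, an outer membrane protein of this family, measured 2241, 2145 and 2518 with placebo and 1861, 2130.4 and 1989 with Lira, each Lira value below each placebo value, with a difference of -0.20 ± 0.09 (adjusted p = 0.82 in limma). When the probe sets of Mtch2 were averaged, its difference was 0.05. Its relative Mtch1 measured 575 ± 103 with placebo and 611 ± 60.1 with Lira. Ucp3, the uncoupling protein of muscle, measured 289 ± 53.2 with placebo and 294 ± 127 with Lira, and Ucp1, that of brown fat, had means of 3.47 and 7.36.

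The enzymes of the malate-aspartate shuttle, which Slc25a11, Slc25a12 and Slc25a13 complete, were bright. Mdh1 measured 21206 ± 4284 with placebo and 23037 ± 2524 with Lira and Mdh2 18402 ± 125 with placebo and 19385 ± 1002 with Lira, and of the 4 enzymes 3 were above 0 and 1 below, with 0 at an unadjusted p under 0.05 in limma. Beside the ADP/ATP carriers, the mitochondrial creatine kinase Ckmt2 measured 19609 ± 1392 with placebo and 19572 ± 1245 with Lira and its cytosolic relative Ckm 15119 ± 198 with placebo and 15576 ± 1084 with Lira. For citrate and pyruvate, citrate synthase Cs measured 14299.7 ± 741 with placebo and 14391 ± 431 with Lira and the pyruvate carrier subunit Mpc1 8720.3 ± 756 with placebo and 8594 ± 949.6 with Lira. The groups of all 6 genes overlapped. Of the genes that use the iron brought in by the mitoferrins, the cluster scaffold Iscu measured 2946 ± 155 with placebo and 3063 ± 107 with Lira and Glrx5 3389 ± 108 with placebo and 3291 ± 281 with Lira. Of the calcium uniporter genes, Smdt1 measured 3105 ± 187 with placebo and 3105 ± 216 with Lira and Micu2 1208 ± 66.1 with placebo and 1165 ± 20.4 with Lira. The coactivator Ppargc1a and the receptor Esrra, which drive mitochondrial genes in the heart, measured 1435 ± 286 with placebo and 1387 ± 283 with Lira, and 1194 ± 169 with placebo and 1166 ± 95.4 with Lira, in that order. The groups overlapped in these 6 genes too, and none of the partner genes measured in this paragraph had an unadjusted p under 0.05 in limma.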

How the data were processed

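The deposited values are linear intensities of probe sets on 6 arrays. Per the submitters' processing notes, the authors made them with Expression Console. Version, algorithm and genome build, not given in the sources used here, stay unknown, so coordinates are left out. The 2% trimmed mean is 150 on each array, so each value is relative to the rest of its array. Array data have no read depth, and the number of mice limits precision. Of 45101 probe sets, 64 controls were left out, and 34945 name 1 gene. Names were updated by gene ID to RefSeq symbols (GRCm38.p6), with 34741 matched.

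Each gene took its brightest probe set, and genes in the lowest 30% by mean log2(signal + 16) were dropped. Fold changes on this scale are understated for dim genes. Tests used limma 3.58.1 in R 4.3.3 (lmFit, eBayes with trend, two-sided, Benjamini-Hochberg over 12736 genes), and the fit was tested on simulated data. Placebo and Lira (3 arrays each) were grouped by the labels. Members, lists and the rule for named genes were chosen with earlier results of these data known. That rule gives array values for the 10 brightest members, those at an unadjusted p under 0.05 and a fixed set with roles in heart metabolism, and of each partner list the brightest pair and any gene at an unadjusted p under 0.05. Array values of Slc25a29, Slc25a36, Slc25a38 and Cpt1a and means of Timm22, Tomm40, Ucp3 and Ucp1 were added after they had been seen. So were the differences of Tomm70a and Timm29 and the single probe sets described. Slc25a21 and Slc25a43 were not analysed here. Alternatives changed the normalisation (quantile, median centring), the filter and the pseudocount, or used probe set means, no trend, a robust prior, array weights, a replicate block and each array left out.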

Additional observations from a re-analysis of the deposited data

How the results depend on the processing

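No member passed an adjusted p of 0.05 under any of the 17 alternatives run. Over all genes, where 7 passed, the number was 1 with no filter, 0 with averaged probe sets (684 at an unadjusted p under 0.05), 0 without the variance trend (688) and 4 with the replicate block, and leaving out 1 array gave 1 to 9. At an unadjusted p under 0.05 in limma, the 4 members became 2 with median centring, 2 with probe set means and 1 without the trend. Leaving out 1 array gave 0 to 4, with 0 without Lira replicate 3, 1 without placebo replicate 2, and 2 without placebo replicate 1 or Lira replicate 1. Non-overlapping members were 3 with probe set means, and 6 to 13 with 1 array left out, where fewer arrays separate more easily. The members' median difference stayed between 0.01 and 0.07. Some differences of named genes turned sign, with probe set means to -0.080 (Slc25a4), 0.075 (Slc25a46), 0.11 (Slc25a26), -0.34 (Slc25a42), 0.052 (Mtch2), -0.047 (Ckm) and 0.20 (Cpt2). They did so with quantile normalisation to -0.066 (Slc25a4), 0.020 (Slc25a39), 0.0098 (Slc25a46), -0.0066 (Slc25a28), -0.016 (Ckm), -0.021 (Cs) and 0.020 (Smdt1). Signs also turned with median centring to 0.0013 (Slc25a39), 0.0043 (Slc25a46), 0.0038 (Ckmt2) and 0.0054 (Smdt1), and with array weights to 0.014 (Slc25a39), 0.0012 (Slc25a46), 0.0021 (Cpt2), 0.013 (Crat), 0.023 (Ppargc1a) and 0.036 (Esrra). Leaving out 1 array took these across 0, with ranges of -0.058 to 0.085 (Slc25a4), -0.11 to 0.0066 (Slc25a5), -0.026 to 0.13 (Slc25a11), -0.068 to 0.056 (Slc25a39), -0.085 to 0.092 (Slc25a46), -0.050 to 0.18 (Slc25a51), -0.055 to 0.47 (Slc25a1), -0.36 to 0.035 (Slc25a10), -0.091 to 0.27 (Slc25a22), -0.15 to 0.11 (Slc25a26), -0.017 to 0.040 (Slc25a28), -0.14 to 0.18 (Slc25a42), -0.047 to 0.21 (Mtch1), -0.045 to 0.23 (Mdh1), -0.048 to 0.053 (Ckmt2), -0.0066 to 0.094 (Ckm), -0.058 to 0.031 (Cpt2), -0.080 to 0.039 (Crat), -0.025 to 0.049 (Cs), -0.094 to 0.069 (Mpc1), -0.045 to 0.058 (Smdt1), -0.16 to 0.13 (Ppargc1a) and -0.15 to 0.042 (Esrra). Slc25a25, Slc25a34, Slc25a13 and Slc25a30 kept their sign in all 17, though Slc25a30 went from 0.40 to 0.13 with probe set means. The cause of these shifts was not tested. Correlations of deviations were -0.04, 0.09 and -0.09 between arrays of equal replicate number and -0.15 to 0.18 between those of unequal number. With 3 arrays per group these values cannot decide whether equal numbers pair the mice. With the replicate block 3 members had an unadjusted p under 0.05 in limma. Dim members are measured least well, with an SE of 0.35 for Slc25a2 and 0.09 for Slc25a4.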
